A study of Homo sapiens with 52 samples.

Results

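The genes described here are 9 members of the bone morphogenetic protein (BMP) pathway: the ligands BMP4 and BMP7, the target genes ID1, ID2, ID3 and ID4, and the inhibitors BAMBI, SMAD6 and SMAD7. They were followed in H1 human embryonic stem cells, an established line, over 10 days of exposure to retinoic acid at 5 µM. Cells of H9 and HUES8, also established embryonic stem cell lines, were kept undifferentiated as comparison groups. All lines were kept in mTeSR medium on Matrigel-coated plates; H1 day 0, H9 and HUES8 received no retinoic acid, and H1 days 1 to 10 did. No untreated H1 culture was sampled after day 0, so retinoic acid and time in culture cannot be told apart. Each of the 13 groups had 2 samples labelled as biological replicates, and each sample filled both arrays (A and B) of the HG-U133 set, for a total of 52. On such arrays a gene is read by 1 or more probe sets, groups of short probes whose combined brightness is the signal. The 9 genes had 20 probe sets annotated to them alone, of 34503 such probe sets in the whole array set: 1 for BMP4, 4 for BMP7, 1 for ID1, 2 for ID2, 1 for ID3, 5 for ID4, 1 for BAMBI, 4 for SMAD6 and 1 for SMAD7. A further probe set of ID2, 213931_at, was left out because it is annotated to ID2 and ID2B. Of the 20, 14 were called present (detection p under 0.05) on at least 2 of the 26 arrays of their chip and were tested, among 21445 probe sets tested in all.

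BMP ligands bind paired receptor kinases that phosphorylate SMAD1, SMAD5 and SMAD9, which enter the nucleus with SMAD4. The ID genes are among the best known direct targets of this signal; their proteins lack a DNA-binding region and hold E proteins, the partners of lineage-specific helix-loop-helix factors, away from DNA. The same signal switches on its own brakes: BAMBI is a receptor-like protein without a kinase, and SMAD6 and SMAD7 are inhibitory SMADs that compete at the receptors. In human embryonic stem cells added BMP4 is known to drive differentiation toward trophoblast-like and amnion-like cells.

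Shown first are the sequences just before the transcription start of the 4 ID genes and of BAMBI. These windows differ in the short motifs they hold. They are the 250 bases before the start in the RefSeq annotation of GRCh38.p14, written from 5′ to 3′ on the strand of the gene. ID1 is at chr20:31605039-31605288 on the plus strand, ID2 at chr2:8681806-8682055 on the plus strand and ID3 at chr1:23559502-23559751 on the minus strand. ID4 is at chr6:19837120-19837369 and BAMBI at chr10:28677271-28677520, both on the plus strand. Capitals mark matches to 3 motifs that were searched on both strands. The core of a TATA box is TATAAA, whose reverse complement is TTTATA. The palindrome GGCGCC is bound by BMP-activated SMADs. The hexamer of retinoic acid response elements is AGGTCA, whose reverse complement is TGACCT.
ID1: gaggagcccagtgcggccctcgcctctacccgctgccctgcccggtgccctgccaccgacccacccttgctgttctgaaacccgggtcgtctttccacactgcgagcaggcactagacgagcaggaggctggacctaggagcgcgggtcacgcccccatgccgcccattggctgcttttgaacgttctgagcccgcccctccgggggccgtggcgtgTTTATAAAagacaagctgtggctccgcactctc
ID2: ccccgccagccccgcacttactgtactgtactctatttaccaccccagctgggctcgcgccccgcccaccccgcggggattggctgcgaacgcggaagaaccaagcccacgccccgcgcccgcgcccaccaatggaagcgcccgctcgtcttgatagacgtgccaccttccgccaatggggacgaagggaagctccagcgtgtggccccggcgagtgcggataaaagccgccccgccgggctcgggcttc
ID3: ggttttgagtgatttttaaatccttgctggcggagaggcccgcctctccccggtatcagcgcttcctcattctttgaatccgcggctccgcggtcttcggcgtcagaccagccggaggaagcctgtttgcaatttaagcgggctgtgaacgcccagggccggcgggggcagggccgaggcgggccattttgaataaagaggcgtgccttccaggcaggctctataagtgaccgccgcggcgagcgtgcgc
ID4: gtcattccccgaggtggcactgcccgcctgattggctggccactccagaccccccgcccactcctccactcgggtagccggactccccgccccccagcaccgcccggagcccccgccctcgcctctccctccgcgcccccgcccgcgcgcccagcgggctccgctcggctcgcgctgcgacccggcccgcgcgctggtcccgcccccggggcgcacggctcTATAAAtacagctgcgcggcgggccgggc
BAMBI: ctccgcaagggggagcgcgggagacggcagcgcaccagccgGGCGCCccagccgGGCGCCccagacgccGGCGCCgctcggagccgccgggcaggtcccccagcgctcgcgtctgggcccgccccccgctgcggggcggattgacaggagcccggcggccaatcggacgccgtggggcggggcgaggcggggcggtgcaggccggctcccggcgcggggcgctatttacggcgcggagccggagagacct
In ID1 the capitals cover the motif TATAAA from -31 and an overlapping match on the opposite strand from -33, positions being those of the first base, counted back from -1 just before the start. ID4 held the motif TATAAA once, from -29. BAMBI held the motif GGCGCC 3 times, from -209, -196 and -181. The windows of ID2 and ID3 held none of the 3 motifs. Over 35116 promoter windows of the same length the share with a match was 10.7% for TATAAA, with 16.4% for GGCGCC and 12.1% for AGGTCA. RefSeq windows were matched for 8 of the 9 genes, 12 windows in all. Outside the 5 printed, GGCGCC was found once in 1 of 3 BMP4 windows, AGGTCA in 1 of 3 SMAD7 windows and TATAAA in another SMAD7 window, and SMAD6 held none. The BMP-responsive element described for ID1 lies further upstream than these windows.

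Between 44.8% and 54.2% of the probe sets of an A chip array were called present, and between 31.1% and 40.1% of those of a B chip array. In the undifferentiated groups the stem cell markers NANOG, SOX2, LIN28A, DNMT3B, PODXL, L1TD1 and ZFP42 were present on both arrays; PRDM14 completed the list of 8 in H9. The 3′ to 5′ signal ratio of ACTB on the A chip, a measure of RNA integrity and labelling, was 1.30 and 1.27 on day 0 and 1.89 and 1.45 on day 10. Day 10 replicate 1 had the highest ratio of the A chip arrays and also the highest share present, 54.2% against 47.1% in replicate 2. Differences are given as log2 differences of group means ± SE (n = 2 per group) from limma, with p-values adjusted by Benjamini-Hochberg over the 21445 probe sets, and "called" means an adjusted p under 0.05. With only 2 samples a group, each test uses the spread estimated across all 13 groups.

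The members that rose against day 0 were first called on different days. BMP4, ID1 and ID4 were called on day 1, ID2 from day 2, BAMBI first on day 3 and ID3 from day 6, while SMAD7 was lower on day 2 only and BMP7 and SMAD6 were called on no day. These are days on which the threshold was passed, and differences in onset were not tested: on day 1 the change was 0.97 in BAMBI, not called, and 0.99 in ID1, whose call was lost in 9 alternatives. Counted by probe set, 6 of the 14 tested were called on day 1, where 0.979% of all probe sets were called, and 8 on day 2 (background 3.07%). The count was 9 on day 3 (background 4.27%), 9 on day 4 (6.43%) and 8 on day 5 (8.73%). It was 10 on day 6 (11.8%), 10 on day 7 (13.2%), 10 on day 8 (13.9%), 10 on day 9 (17.7%) and 9 on day 10 (21.7%). SMAD7 on day 2 was the only lower call among them. In genes these were 3 of 9 on day 1, 5 on days 2, 3 and 4, 4 on day 5 and 6 from day 6 to day 10. The F test over the 11 H1 days called 10 of the 14 probe sets, of 6 genes, against 23.3% of all probe sets. The median change of the 14 was 0.59 on day 1, 2.20 on day 4 and 1.33 on day 10, while that of all tested probe sets was -0.03, -0.04 and 0.03. These counts and medians describe the probe sets that passed the detection filter: BMP4 and the ID4 probe set 226933_s_at passed it through treated samples alone, and 4 of the 14 belong to ID4.

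**Figure D1:**
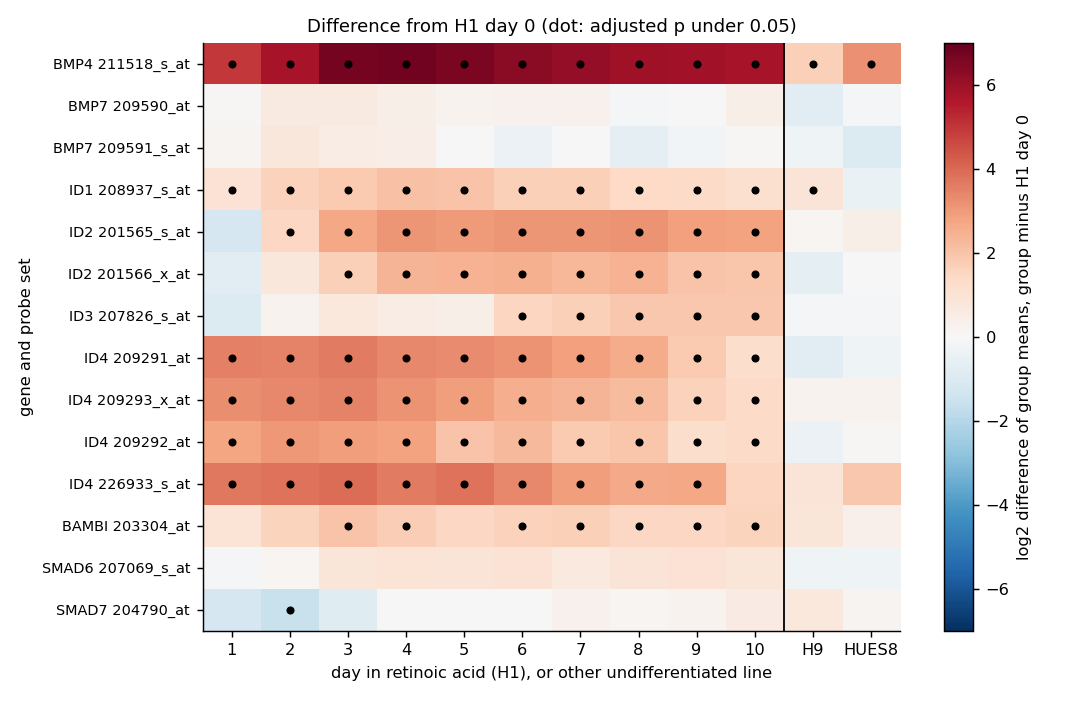
Differences from H1 day 0 on the log2 scale (colour) for the 14 tested probe sets (rows) on days 1 to 10 and in H9 and HUES8 (columns); dots mark an adjusted p under 0.05. The ID4 rows are red from day 1 and paler by day 10. The ID3 row has its first dot on day 6, and the SMAD7 row is blue on days 1 to 3. The BMP4 colours rest on day 0 signals that were not called present.

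BMP4, the ligand, went from no detectable signal to the highest level on day 4. Its only probe set, 211518_s_at, read 11.4 and 10.5 on day 0, 422 and 261 on day 1, 738 and 484 on day 2, and 1135 and 1139.5 on day 3. The signals were 1208 and 1117 on day 4, 1158 and 951 on day 5, 978 and 786 on day 6 and 937 and 649.5 on day 7. They were 846 and 518 on day 8, 771 and 556 on day 9 and 763 and 476 on day 10, with 38.9 and 32.0 in H9 and 72.5 and 137 in HUES8. Every treated sample lay above every undifferentiated one, and replicate 1 was the brighter of the pair on all days but day 3. The probe set was called present on 14 of the 26 arrays: both of days 3 to 8, and replicate 1 of days 2 and 10.

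The difference from day 0 was called on all 10 days, with adjusted p-values from 9.98e-11 on day 4 to 3.31e-08 on day 1. Because day 0 had no present call, the fold is given as a lower bound against the lowest signal called present on each day 0 array, a level shared by all probe sets and not the detection limit of BMP4. BMP4 was at least 16.7-fold higher on day 2, at least 31.7-fold on day 3, at least 32.4-fold on day 4 and at least 16.8-fold on day 10. No fold is given for days 1 and 9, where neither group had a present call. From day 1 to day 5 it rose by 1.66 ± 0.34 (adjusted p = 0.00478), at least 3.16-fold, a call lost without day 1 replicate 2 (adjusted p = 0.0783) or day 5 replicate 1 (adjusted p = 0.0547). The difference of day 10 from day 5 was -0.80 ± 0.34 (adjusted p = 0.143). Detection p-values were close to the threshold even at the peak, 0.0186 to 0.0461 over days 3 to 8, so the level of BMP4 rests on a probe set near its detection limit.

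BMP7, a second ligand of the same receptors, was called on no day. Its brightest probe set, 209590_at, read 316 and 262 on day 0, 483 and 417 on day 2, 439 and 466 on day 3, 334 and 336 on day 5 and 441 and 328 on day 10. H9 gave 205 and 138, neither called present, and HUES8 229 and 309. Both samples of days 2 to 7 and of day 10 were above both day 0 samples, and those of days 1, 8 and 9 overlapped with them. The difference from day 0 lay between -0.06 on day 8 and 0.65 ± 0.24 on day 3 (adjusted p = 0.169), and the F test gave an adjusted p of 0.18. A second probe set, 209591_s_at, ranged from 42.98 to 228 over the 26 arrays with an adjusted p of 0.245. The other 2, 211259_s_at and 211260_at, were present on no array and were not tested.

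**Figure D2:**
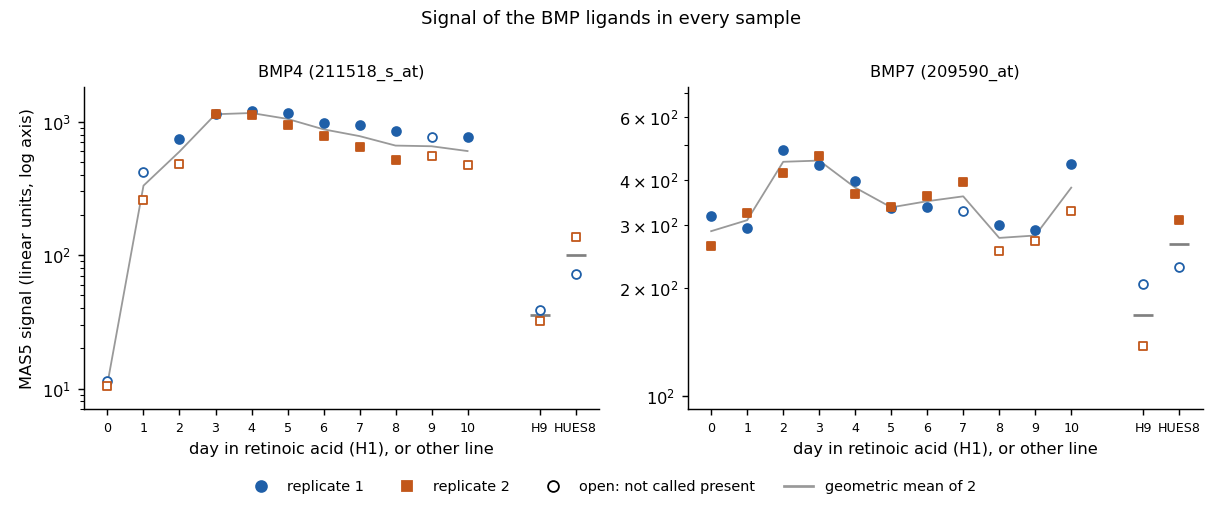
Signal of BMP4 and BMP7 in every sample by day in retinoic acid and in H9 and HUES8 (log axis, linear MAS5 units); open symbols were not called present, and grey lines or bars give the geometric mean of the 2 replicates. BMP4 climbs from about 11 to above 1100 by day 3, while BMP7 stays between 138 and 483.

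ID1 was bright in all samples and rose about 4-fold. Its probe set 208937_s_at read 7274 and 5365 on day 0, 13427 and 11458 on day 1, 23197 and 15777 on day 2, and 22476 and 22614 on day 3. The signals were 25402 and 25626 on day 4, 26846 and 22901 on day 5, 18786 and 20889 on day 6 and 17859 and 22544 on day 7. They were 18511 and 14757 on day 8, 18025 and 13438 on day 9, and 16123 and 11138 on day 10. All treated samples were above both day 0 samples, the 3 highest signals were of days 4 and 5, and those of day 10 overlapped with those of day 1. ID1 rose by 0.99 ± 0.23 on day 1 (adjusted p = 0.0345) and by 2.03 ± 0.23 on day 4 (adjusted p = 5.16e-06), 4.08-fold, and on day 10 it was still 1.10 ± 0.23 higher (adjusted p = 0.00142). It fell by 0.89 between days 5 and 10 (adjusted p = 0.0175). The day 1 call was lost after quantile normalization (adjusted p = 0.083), after centring on control probe sets (adjusted p = 0.118) and without day 0 replicate 2 (0.77, adjusted p = 0.38). The day 10 call was lost with the ACTB ratio as a covariate (0.68, adjusted p = 0.141), and that from day 5 to day 10 without day 10 replicate 2 (-0.62, adjusted p = 0.205).

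ID2, which is also expressed in trophoblast, read lower on day 1 than on day 0 and was high from day 3. Probe set 201565_s_at read 642 and 599 on day 0, 291 and 267 on day 1 with no present call, 3079 and 918 on day 2, and 4618 and 3520.3 on day 3. The signals were 6068 and 4430.0 on day 4, 5089.6 and 4719.8 on day 5, 5583 and 5152 on day 6 and 4961 and 5477 on day 7. They were 5455 and 5445 on day 8, 5869.6 and 3525 on day 9 and 5574 and 3392 on day 10. Both day 1 samples were the lowest of the series, both day 2 samples already exceeded day 0, and from day 3 on no sample overlapped with days 0 to 2. The difference from day 0 was -1.16 ± 0.37 on day 1 (adjusted p = 0.184), 2.70 ± 0.37 on day 3 (adjusted p = 8.39e-05) and 3.13 ± 0.37 on day 8 (adjusted p = 4.46e-06), 8.78-fold. Day 5 was at least 17.6-fold above day 1 (adjusted p = 4.96e-07), and from day 5 to day 10 the difference was -0.17 (adjusted p = 0.812). At day 2 it was 1.44 ± 0.37 (adjusted p = 0.0337), with a 3.35-fold gap between the replicates, and without day 2 replicate 1 it was 0.57 (adjusted p = 0.386). The dimmer probe set 201566_x_at, whose name marks possible cross-hybridisation, was called from day 3 to day 10, between 1.67 and 2.49 higher.

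ID3 was first called on day 6. Its probe set 207826_s_at read 1078 and 949 on day 0, 593 and 454 on day 1, 1253 and 1129 on day 2, and 1672 and 1715 on day 3. The signals were 1529 and 1422 on day 4, 1387 and 1346 on day 5, 2948 and 2877 on day 6 and 3926 and 2718 on day 7. They were 4370.2 and 3287 on day 8, 5246 and 2732 on day 9 and 6536 and 2162 on day 10. The day 1 samples were below all others, days 3 to 5 lay in a narrow band above day 0, and all samples of days 6 to 10 were above that band. Its difference from day 0 was -0.96 ± 0.35 on day 1 (adjusted p = 0.281), 0.43 ± 0.35 on day 5 (adjusted p = 0.533), 1.53 ± 0.35 on day 6 (adjusted p = 0.00565) and 1.91 ± 0.35 on day 8 (adjusted p = 0.000635). At day 10 it was 1.89 ± 0.35 (adjusted p = 0.000504), and with the ACTB ratio as a covariate 1.18 (adjusted p = 0.0841); the day 6 value then was 1.03 (adjusted p = 0.0902). Day 10 was 1.46 ± 0.35 above day 5 (adjusted p = 0.0117), but 0.66 (adjusted p = 0.205) without day 10 replicate 1. From day 1 to day 10 ID3 rose by 2.86 ± 0.35 (adjusted p = 6.71e-06), 7.24-fold.

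ID4 rose early and came back most of the way. Probe set 209291_at read 336 and 549.5 on day 0, 4883 and 4875 on day 1, 5865 and 3989 on day 2, and 5838 and 5022 on day 3. The signals were 3437 and 5554 on day 4, 4356 and 4072 on day 5, 4059 and 3696 on day 6 and 3144 and 3030.4 on day 7. They were 2309 and 3005 on day 8, 1924 and 1249 on day 9 and 1416 and 708 on day 10. All treated samples exceeded day 0, both samples of day 3 were above and both of day 5 below those of day 1, while the samples of days 2 and 4 spanned the day 1 level. Those of days 9 and 10 were below all from days 1 to 8. ID4 rose by 3.50 ± 0.32 on day 1 (adjusted p = 1.7e-06), 11.4-fold, and was 3.65 ± 0.32 above day 0 on day 3 (adjusted p = 3.05e-07). It fell by 2.07 between days 5 and 10 (adjusted p = 0.000494), 4.21-fold. At day 10 it remained 1.22 ± 0.32 above day 0 (adjusted p = 0.00918); this call was lost without day 0 replicate 1 (0.87, adjusted p = 0.138), without day 10 replicate 1 (0.72, adjusted p = 0.184) and with the ACTB covariate (0.89, adjusted p = 0.22).

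The other ID4 probe sets also rose on day 1, and all but 1 of them fell between days 5 and 10. At day 1 the difference was 3.26 ± 0.27 for 209293_x_at (adjusted p = 5.33e-07), 2.76 ± 0.42 for 209292_at (adjusted p = 0.0009) and 3.68 ± 0.58 for 226933_s_at on the B chip (adjusted p = 0.00115). Between days 5 and 10 they gave -1.58 (adjusted p = 0.00125), -0.67 (adjusted p = 0.328) and -2.31 (adjusted p = 0.0151). Thus 3 of the 4 tested probe sets were called lower over that interval and 209292_at was not. The remaining probe set, 229386_at, was present on 1 array and was not tested.

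**Figure D3:**
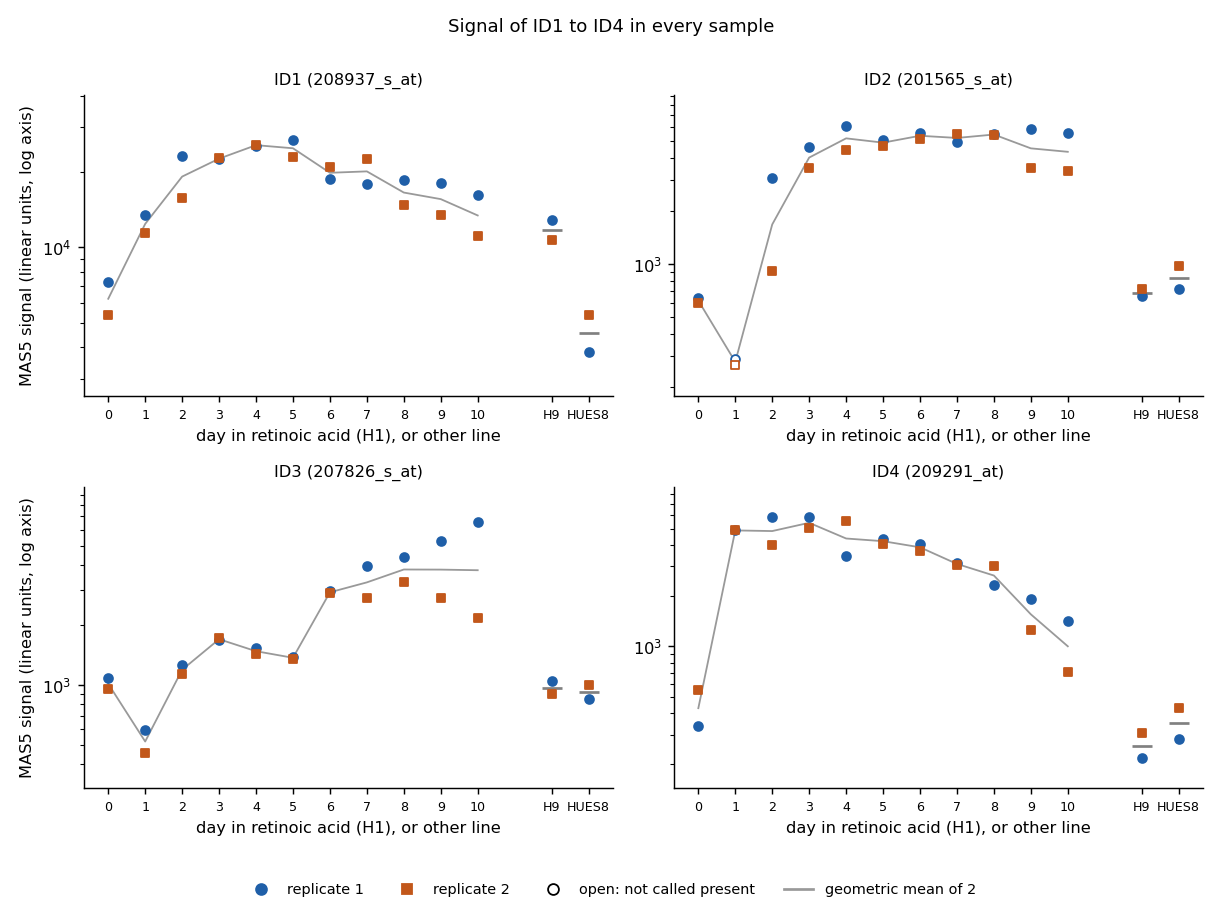
Signal of ID1 to ID4 in every sample by day in retinoic acid and in H9 and HUES8 (log axis, linear MAS5 units); open symbols were not called present. ID4 is at 4883 and 4875 on day 1 and between 708 and 1416 on day 10, ID2 is lowest on day 1 and levels off from day 4, and ID3 steps up on day 6.

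BAMBI, the receptor-like inhibitor, was higher in every treated sample than in either day 0 sample. Its probe set 203304_at read 1144 and 998 on day 0, 2386 and 1824 on day 1, 3421 and 2814 on day 2, and 3864 and 4553 on day 3. The signals were 3237 and 3789 on day 4, 3103 and 2838 on day 5, 3629 and 2859 on day 6 and 4355 and 2644 on day 7. They were 4856 and 1767 on day 8, 4820.2 and 1818 on day 9 and 5823 and 1682 on day 10. Replicates lay close together up to day 6 and far apart from day 8, where replicate 1 read higher than any sample of days 0 to 7 and replicate 2 was below day 1. BAMBI was called higher on days 3, 4 and 6 to 10, with 1.97 ± 0.48 on day 3 (adjusted p = 0.0191), 3.93-fold, and 1.55 ± 0.48 on day 10 (adjusted p = 0.0251). Days 1, 2 and 5 gave 0.97 (adjusted p = 0.518), 1.54 (adjusted p = 0.0932) and 1.47 (adjusted p = 0.0618). Each of its calls was lost when either day 0 replicate was left out (day 3 adjusted p = 0.0871 and 0.141, day 10 adjusted p = 0.0738 and 0.133), without the intensity trend and with the ACTB covariate. The F test did not call it (adjusted p = 0.143).

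SMAD6, an inhibitory SMAD that acts chiefly on the BMP branch, was not called on any day. Probe set 207069_s_at read 651 and 364 on day 0, 564 and 370.0 on day 1, 725 and 411 on day 2, and 813 and 945 on day 3. From day 4 to day 10 the signals lay between 679.6 on day 10 and 1146 on day 9. From day 3 on, all samples were above both of day 0, and the day 0 replicates were themselves well apart. The largest differences from day 0 were 1.03 ± 0.36 on day 6 (adjusted p = 0.071) and 1.02 ± 0.36 on day 9 (adjusted p = 0.0548), and the F test gave an adjusted p of 0.0948. Its other 3 probe sets were present on 1 array or none and were not tested.

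SMAD7, which also restrains the TGF-beta and activin branch, was lower on day 2 and came back. Its probe set 204790_at read 674 and 406 on day 0, 289 and 192 on day 1, 239.6 and 135 on day 2, and 399 and 209 on day 3. The signals were 645 and 436 on day 4, 530.0 and 535 on day 5, 633 and 424 on day 6 and 709.5 and 579 on day 7. They were 579 and 559 on day 8, 602 and 621 on day 9 and 731 and 820.2 on day 10. The samples of days 1 to 3 were below both of day 0, those of days 4 to 9 were back among or near them, and both of day 10 were above them. SMAD7 fell by 1.54 on day 2 (SE 0.34, adjusted p = 0.0124), 2.91-fold, its only called day against day 0. That call was lost without day 0 replicate 1 (-1.18, adjusted p = 0.205) or day 2 replicate 2 (-1.13, adjusted p = 0.209). From day 1 to day 10 it rose by 1.72 ± 0.34 (adjusted p = 0.00106), 3.29-fold. From day 1 to day 5 the rise was 1.18 ± 0.34 (adjusted p = 0.0468), and leaving out any 1 of those samples ended the call (adjusted p = 0.0531 to 0.286).

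**Figure D4:**
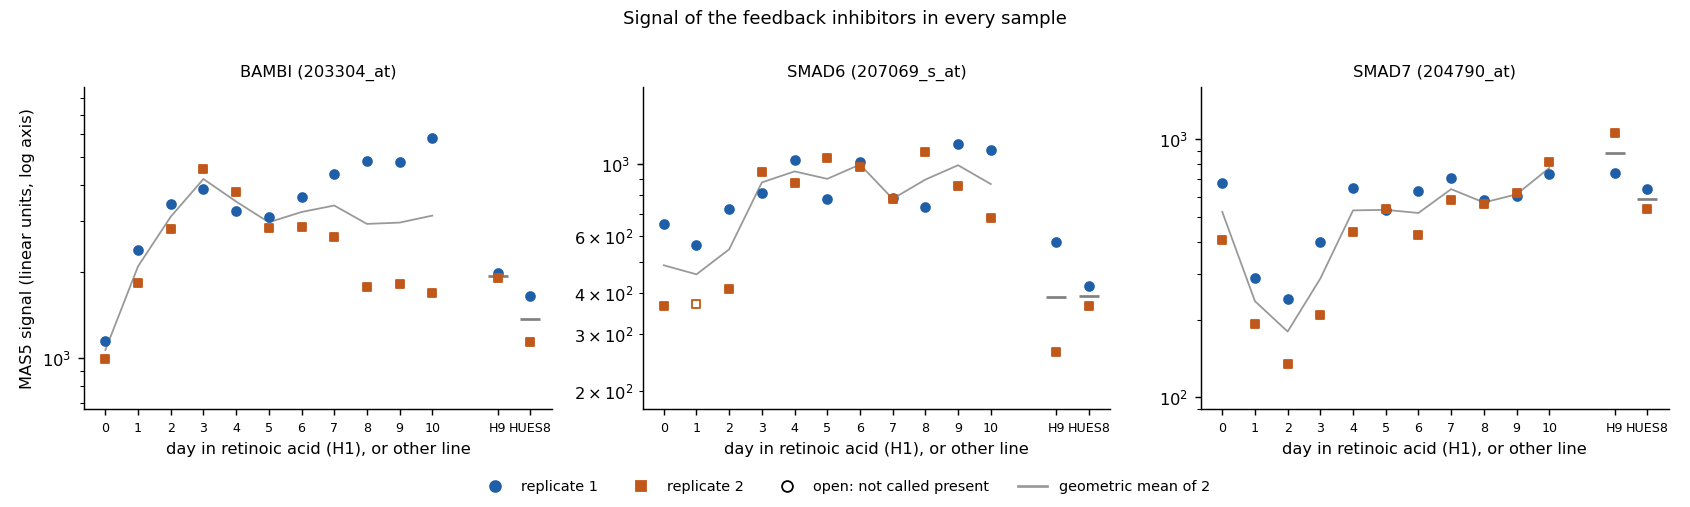
Signal of BAMBI, SMAD6 and SMAD7 in every sample by day in retinoic acid and in H9 and HUES8 (log axis, linear MAS5 units); the open symbol was not called present. The replicates of BAMBI part from day 8, at 5823 and 1682 by day 10, and SMAD7 is lowest on day 2, at 239.6 and 135.

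The late parting of replicates was shared by BAMBI and ID3. For BAMBI, replicate 1 exceeded replicate 2 by 1.46 log2 units on day 8, 1.41 on day 9 and 1.79 on day 10; of all tested probe sets 3.53%, 5.06% and 3.43% differed at least as much between the replicates of those days. For ID3 the gap was 0.94 on day 9 and 1.60 on day 10, where 4.26% differed as much. At day 10 replicate 1 was the higher in 12 of the 14 tested probe sets, SMAD7 and 226933_s_at of ID4 being the 2 exceptions, while over all tested probe sets it was the higher in 47.4%. This lean was not particular to day 10. Replicate 1 was the higher in 12 of the 14 on day 1, 12 on day 2 and 13 on day 9. Over all tested probe sets the shares were 52.1%, 55.2% and 50.1%. On the other H1 days it was the higher in 6 to 10 of the 14. Day 10 replicate 1 also had the higher summed signal of 6 fibroblast and matrix markers, 21796 against 11165, and of 6 endoderm markers, 4104 against 2212. So it was for 8 trophoblast and amnion markers, 10434 against 6570.4, and for the stem cell markers, 14112 against 13239. It had the lower sum of neural markers, 3724 against 4182, of mesoderm markers, 631.4 against 698.5, and of endothelial markers, 448.3 against 715.6. On day 8 the endoderm sum was lower in replicate 1, 2248 against 3235. Whether these differences contribute to the gap was not tested.

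**Figure D5:**
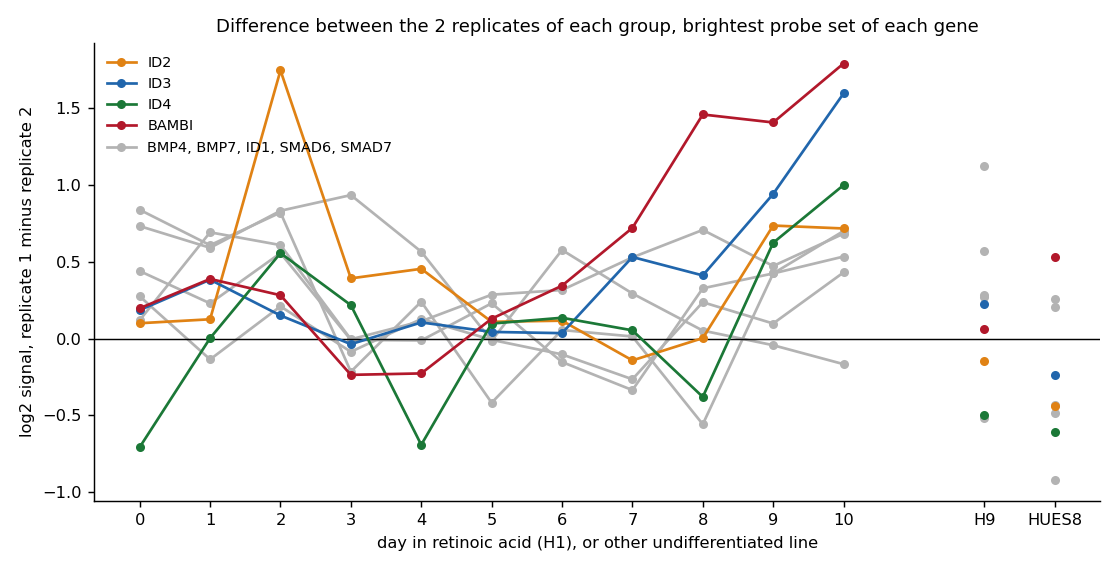
Log2 signal of replicate 1 minus replicate 2 in each group for the brightest probe set of each gene; a value above 0 means that replicate 1 was brighter. BAMBI climbs to 1.79 and ID3 to 1.60 on day 10, and ID2 stands out on day 2 with 1.75.

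Between treated days the members moved in opposite directions. From day 1 to day 5, 6 of the 14 tested probe sets were called, all higher (background 5.37%): BMP4, ID1, both of ID2, ID3 and SMAD7. Fewer were called without day 1 replicate 2 or without day 5 replicate 1, and fewer of all probe sets were called in those fits too. From day 5 to day 10, 5 were called (background 10.3%): ID3 was higher, and ID1 with 3 ID4 probe sets was lower. Again fewer were called without day 5 replicate 2 or without either day 10 replicate, and so it was over all probe sets. From day 1 to day 10, 8 were called (background 22.5%), with both ID2 probe sets, ID3 and SMAD7 higher and all 4 of ID4 lower. ID3 and ID4 thus crossed over, since day 10 differed from day 1 by 2.86 in ID3 and by -2.28 in ID4. Across the 13 group means, which share arrays and scaling, the log2 levels of ID3 and ID4 had r = 0.17 and those of ID2 and ID3 r = 0.85. Those of BMP4 and BAMBI had r = 0.92, and those of ID4 and SMAD7 r = -0.61. The lowest BMP4 means come from signals that were not called present.

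Few of these genes were called between the undifferentiated lines. Against H1 day 0, 2 of the 14 probe sets were called in H9 (background 4.31%) and 1 in HUES8 (background 0.173%); between HUES8 and H9, 2 were called (background 2.39%). ID1 read 12881 and 10704 in H9 and 3841 and 5387 in HUES8. Both H9 samples exceeded those of H1 day 0, and HUES8 overlapped with H1 day 0. ID1 was 0.91 ± 0.23 higher in H9 than in H1 day 0 (adjusted p = 0.0267) and differed by -1.37 ± 0.23 in HUES8 from H9 (adjusted p = 0.00202). The H9 call was lost without H1 day 0 replicate 2 (0.69, adjusted p = 0.216) and without either H9 replicate (adjusted p = 0.208 and 0.0628). The remaining calls were of BMP4, higher in H9 and HUES8 than in H1 day 0 and higher in HUES8 than in H9, where no array had a present call, so no fold is given. For BMP4 in H9 the difference of 1.69 became 0.93 with a pseudocount of 16 (adjusted p = 0.103). With only the compared groups in the fit, each of these BMP4 calls was lost. The adjusted p was 0.424 for H9 and 0.228 for HUES8 against day 0, and 0.178 between HUES8 and H9. The call between HUES8 and H9 was also lost after control centring (adjusted p = 0.0526), with the pseudocount (adjusted p = 0.0561) and with the ACTB covariate (adjusted p = 0.0508). The brightest probe sets of ID2 read 656 and 726 in H9 and 719.8 and 976 in HUES8, of ID3 1043 and 894 against 848 and 998, and of ID4 216 and 306 against 282 and 431. BAMBI gave 1979 and 1895 in H9 and 1649 and 1141 in HUES8, SMAD6 573 and 263 against 421 and 364, and SMAD7 742 and 1061 against 644 and 538. None of these 6 genes was called against H1 day 0.

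The rest of the pathway was read with 1 probe set per gene, and over all 12201 genes read this way 1.11% were called on day 1, 9.78% on day 5 and 24.4% on day 10. Among 15 other BMP response genes, 14 were tested: 1 was higher and 1 lower on day 1, 10 were higher and none lower on day 5, and 9 were higher and 1 lower on day 10. Their median change was 1.06, 3.70 and 2.61 on those days, while that of all genes was -0.002, 0.02 and 0.008. Of the 14, 6 were called present on treated arrays alone (MSX2, DLX3, DLX5, GATA2, TBX3 and ATOH8), so they entered the test through the samples in which they were high, and the counts and medians are descriptions of the genes that passed. TFAP2A, a transcription factor of surface ectoderm and trophoblast, read 14.7 and 9.76 on day 0, 153.6 and 47.5 on day 1, 3986 and 4092 on day 5 and 3128 and 2794 on day 10. It was at least 112.6-fold higher on day 5 (adjusted p = 1.44e-07). MSX2, a homeobox gene induced by BMP, was at least 39.8-fold higher on day 5 (adjusted p = 1.74e-06), from 10.8 and 6.40 to 1370.1 and 1491. DLX5, another homeobox gene, was called on day 1, at 88.6 and 130 against 9.25 and 7.79 with no present call (adjusted p = 1.82e-05), and was at least 20.3-fold higher on day 5 (adjusted p = 1.18e-09). Of the listed response genes, GATA2, GATA3 and HAND1 also stand in the list of trophoblast and amnion markers.

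Other ligands, the receptors and the signal SMADs carry the signal itself. Their counts are to be read against the shares over all genes of 1.11% on day 1, 9.78% on day 5 and 24.4% on day 10. Of 6 other BMP ligands tested of 15 listed, none was called on days 1 and 5 and 1 was lower on day 10. Of 7 receptors and coreceptors tested of 11, none was called on days 1 and 5 and 1 was lower on day 10. On day 10 that was RGMB, a coreceptor, at 1397 and 1439 on day 0 and 533 and 686 on day 10 (-1.23 ± 0.26, adjusted p = 0.00157). RGMA, its relative, was 0.53 log2 units or less from day 0 on days 1, 5 and 10. Of the 4 signal SMADs, SMAD9 was called higher on day 10 by 2.26 ± 0.58 (adjusted p = 0.00753), from 159 and 243 to 1106 and 802, while SMAD5 and SMAD4 were not called against day 0 on days 1, 5 or 10. The F test over the 11 H1 days called SMAD9, SMAD5 and SMAD4, and 23.3% of all probe sets. Of the 4, 2 were higher on day 7 against day 0 (13.2% of all probe sets called). From day 1 to day 10, 2 were higher (22.5%), and from day 1 to day 5, 1 was lower (5.37%).

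Secreted antagonists bind BMP ligands outside the cell. Of 12 tested of 19 listed, none was called on day 1, 1 was higher and 1 lower on day 5, and 3 were higher and 1 lower on day 10, counts to be read against the shares of 9.78% and 24.4% over all genes. NOG, FSTL3, BMPER and SOSTDC1, 4 of the 12, were present on treated arrays alone. CER1, an antagonist of BMP, nodal and WNT ligands, read 1199.8 and 1035 on day 0, 252 and 209 on day 1 and 152 and 199.7 on day 10, and was at least 6.39-fold lower on day 10 (adjusted p = 0.00203). NOG, which encodes noggin, was called higher on day 5 (adjusted p = 0.0225), at 274 and 246 against 11.4 and 36.5, with no present call in either group. SOSTDC1 was at least 3.15-fold higher on day 10 (adjusted p = 0.0237), with replicates at 240.5 and 53.0.

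Intracellular brakes act on the receptors or on the SMADs. Of 8 listed and tested, 1 was higher on day 1, 2 were higher and 1 lower on day 5, and 2 were higher and 1 lower on day 10, beside the shares over all genes of 1.11%, 9.78% and 24.4%. TOB1, a repressor of SMAD-driven transcription, read 1434 and 1441 on day 0, 3278 and 3116 on day 1, 4502 and 5847 on day 5 and 2315 and 2758 on day 10. It rose by 1.15 ± 0.20 on day 1 (adjusted p = 0.00247) and by 1.84 ± 0.20 on day 5 (adjusted p = 1.63e-06). PPM1A, a phosphatase of SMAD proteins, fell by 1.58 on day 5 (adjusted p = 0.0038), from 3140.3 and 2195 to 1035 and 746. CTDSP1, another phosphatase, was at least 3.23-fold higher on day 10 (adjusted p = 0.00035). It was present on treated arrays alone, so it entered the counts and the test through the samples in which it was high. None of the 3 E proteins that ID proteins bind was called against day 0 on days 1, 5 or 10. TCF12 read 1023 and 1081 on day 0, 799 and 848 on day 5 and 1175 and 1321 on day 10. The F test over the 11 H1 days called TCF12, and 23.3% of all probe sets. From day 5 to day 10, 1 of the 3 was higher (10.3% of all probe sets called), and from day 1 to day 10, 1 was higher (22.5%).

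Markers of other cells moved over the same days. The summed signal of 8 trophoblast and amnion markers was 354 and 369.9 on day 0, 869 and 455 on day 1, 4191 and 1278 on day 2, 9836 and 5659 on day 3 and 10535 and 8857 on day 5. None of the 8 was present on both arrays on day 0 or day 1, and GATA2, GATA3, KRT7, HAND1, ISL1 and GABRP, 6 of 8, were on day 5; MUC15 was on no day. The 8 stem cell markers summed to 71260.1 and 73131 on day 0, 103562 and 101378 on day 2, 46730 and 67480 on day 5 and 14112 and 13239 on day 10. Fibroblast and matrix markers summed to 942 and 805 on day 0, 3534 and 2558 on day 5, 7218 and 6939 on day 6 and 21796 and 11165 on day 10, when 3 of 6 were present on both arrays and DCN and LUM were not. Endoderm markers went from 577 and 510.1 on day 0, with 0 of 6 present on both arrays, to 4104 and 2212 on day 10, with GATA6 and TTR. Of the mesoderm markers EOMES alone was present on both arrays on day 0 and none of 5 on day 10, neural markers fell in sum from 22707 and 25447 to 3724 and 4182, and endothelial ones were between 448 and 1402 in H1. Their part in the changes of the 9 genes was not tested, and in RNA of whole cultures fewer cells of a type and less RNA per cell cannot be told apart.

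The genes with the most similar course were found by Pearson r over the 13 group means, among 2176 probe sets that changed over the H1 days and spanned at least 2 log2 units. For BMP4 they were GFRA1 (r = 0.971), SKAP2 (0.969) and CFAP300 (0.955). The lowest BMP4 means, on day 0 and in H9 and HUES8, come from signals that were not called present. For ID1 they were ERRFI1 (0.927), MYCT1 (0.926) and DLX5 (0.925). For ID2 they were DLC1 (0.985), CLDN4 (0.983) and ISL1 (0.979), and for ID3 PLA2G4A (0.974), EPB41L3 (0.970) and GRK5 (0.963). CFTR, TSPAN18 and ZNF503 each had 0.970 with ID4, and SOCS2 (0.940), CDC42EP3 (0.938) and AMOTL1 (0.896) were nearest to SMAD7. The group means share arrays and scaling, and these values are descriptions. SKAP2, for example, read 12.99 and 104 on day 0, 1022.0 and 1037 on day 1 and 3524 and 2449 on day 4, so like BMP4 it was lowest on day 0 and high on day 4.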

How the data were processed

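Per the submitters' processing notes the authors computed each intensity (linear signal) with MAS5, version not given. Each array had a 2% trimmed mean of 500.2 or 500.3, which shows scaling to a common level. A detection p-value is deposited with each intensity, and values under 0.05 were taken as present. The signal was used as log2, with no further normalization.

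Probe sets naming 1 gene (34503 of 44928) were kept, Affymetrix controls were left out, and present calls on 2 of 26 arrays were required. limma 3.58.1 in R 4.3.3 fitted 1 mean per group to each chip (13 residual degrees of freedom, prior 6.81 and 8.30, intensity trend) after testing on simulated data. Two-sided p-values were adjusted (Benjamini-Hochberg) within each comparison across both chips. Lower bounds on folds use, for the dim group, at least the dimmest present signal of its array, and carry no sampling error.

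The 9 genes, the pathway and marker lists and the naming rules were chosen with earlier results of these data known. Up to 3 genes per pathway list were named, those called in the F test with the largest change at day 1, 5 or 10. The arrays give no depth in reads, and their number limits the precision.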

Additional observations from a re-analysis of the deposited data

How the results depend on the processing

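Of 113 called changes of the 9 genes, alternatives gave 1425 values, of which 1274 kept their direction and call, 0 reversed and the rest lost the call. Losses were 22 of 113 with the ACTB 3′/5′ ratio as a covariate, 13 after centring on control probe sets, 13 without the intensity trend, 12 with only the compared groups in the fit, 7 without the detection filter, 4 after quantile normalization, 3 with log2(signal + 16) and 77 of 452 with 1 sample left out. Same-numbered replicates deviated together among days 1 to 7. There the correlation of replicate differences was 0.102 to 0.304, above 0.1 in 21 of 21 pairs of days. It was 0.177 for day 7 with day 8, 0.149 for day 8 with day 9 and 0.264 for day 9 with day 10. Over all pairs of days 1 to 10 it ranged from -0.0018 to 0.304 and was above 0.1 in 27 of 45. Where day 0, H9 or HUES8 was in the pair it was above 0.1 in 0 of 33, and over all groups in 27 of 78. The labels do not say whether a number marks a shared run, and the fits without the block are the ones reported. With the replicate block 113 of 113 calls held and more were made: 7 on day 1, 9 on day 2 and 12 in the F test of the 14 probe sets, where 1.72%, 5.19% and 30.5% of all were called. Using 1 probe set per gene, of 9 genes 3 were called on day 1, 5 on days 2, 3 and 4, 4 on day 5 and 6 on days 6, 7 and 8, against day 0; 3 from day 5 to day 10, 4 from day 1 to day 10 and 6 in the F test. In that fit 1.18% of all genes were called on day 1, 3.83% on day 2, 5.36% on day 3 and 7.83% on day 4. The share was 10.3% on day 5, 13.8% on day 6, 15.4% on day 7 and 16.3% on day 8. It was 12.7% from day 5 to day 10, 26% from day 1 to day 10 and 27.1% in the F test. With the ACTB covariate 3 of 14 were called on day 10 (BMP4, ID2 and the ID4 probe set 209293_x_at), 3 from day 5 to day 10 and 1 between HUES8 and H9, beside 11.6%, 5.46% and 1.98% of all probe sets. With only the compared groups the counts were 3 from day 5 to day 10, 0 for HUES8 against day 0 and 1 between HUES8 and H9, beside 2.69%, 0.0699% and 2.82%. Control centring and log2(signal + 16) each gave 1 for H9 against day 0 and 1 between HUES8 and H9, and the fit with no trend gave 1 for H9. For H9 these fits called 2.93%, 4.26% and 3.27% of all probe sets. Between HUES8 and H9, control centring called 1.82% of all and log2(signal + 16) 2.33%. Leaving out 1 sample gave fewer calls from day 1 to day 5, from day 5 to day 10 and for H9. Between HUES8 and H9 it gave as many or fewer. Over all probe sets fewer were called as well, except from day 5 to day 10 without day 5 replicate 1. After control centring the median change of all probe sets from day 0 was -0.17 on day 2 and 0.14 on day 10. In the reported fit it was -0.05 and 0.03. No called change of the 9 genes reversed under control centring. BMP4 read near background, and its folds are given as lower bounds.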

Other observations

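HEY1 and HEY2, transcriptional repressors induced by Notch and BMP, were singled out after their values were seen. HEY1 fell by 2.67 on day 1 (SE 0.44, adjusted p = 0.00221) and was 1.51 ± 0.44 above day 0 on day 5 (adjusted p = 0.0359). HEY2 differed from day 0 by 1.13 ± 0.54 on day 1 (adjusted p = 0.495) and by -0.30 on day 5 (adjusted p = 0.818), and was at least 24.4-fold lower on day 10 (adjusted p = 2.52e-06).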
